A study of Mus musculus with 60 samples.

Results

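The comparison described here is that of the lungs of mice given the middle dose (D2) of benzo(ghi)perylene (BghiP) with the lungs of mice given the vehicle alone (D0). Its members are the 10 lung arrays whose titles name D2 or D0, 5 a group, of 60 arrays in the whole series. All mice were male Muta Mouse, a strain that carries a bacterial lacZ transgene as a mutation reporter, about 10 weeks old, and each array held the RNA of 1 mouse. D0 mice (numbered 1 to 5) received olive oil by gavage for 28 days, and D2 mice (numbered 11 to 15) received 12.5 mg/kg-bw/day of BghiP in olive oil over the same time. Tissues were taken 72 h after the last dose. D1 mice (6 to 10) received 6.25 mg/kg-bw/day and D3 mice (16 to 20) 25 mg/kg-bw/day, and liver and forestomach of the same 20 mice were also hybridised. Each value is a log2 ratio of lung RNA (Cy5) to a common mouse reference RNA (Cy3), so a value of 0 is the level of that reference and not an absence of RNA.

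BghiP is a polycyclic aromatic hydrocarbon, a flat molecule of fused rings. Many such hydrocarbons bind the aryl hydrocarbon receptor, a transcription factor that, with its partner Arnt, turns on the oxidising enzymes Cyp1a1 and Cyp1b1. The reactive products of those enzymes can bind DNA, and p53 then turns on genes such as Cdkn1a, which halts the cell cycle, and Mdm2, which returns p53 to a low level. In lung, the same exposure can also reach the cells that line the airways and alveoli, the resident macrophages and the connective tissue. Because whole lung tissue was used, fewer cells of a type and less RNA per cell cannot be told apart.

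Lung markers were present. All 13 markers of alveolar type 2 cells and all 10 tested markers of alveolar type 1 cells were well above background on every one of the 10 arrays. Of 11 hepatocyte markers, 3 were tested, and 2 of these were also well above background on all 10 arrays. The share of probes well above background ran from 34.9% to 58.6% over the 20 lung arrays and went with the slide, slide 2 being the dimmest and slide 5 the brightest. Each of the 5 slides held 1 lung array of each dose, always in the same column, so dose and position on the slide cannot be told apart. The D0 arrays of mice 1 and 3 had the lowest correlations with the mean of their own group, 0.907 and 0.921. Mouse 1 stood apart in its 8 tested skeletal muscle markers. Their mean was 4.89 on a log2 scale set to the D0 mean, against -1.18, -0.79, -1.37 and -1.55 in the other D0 mice. The squamous epithelial markers of mouse 1 were also high, at 2.76 against -0.45 to -1.01 in the other D0 mice. The D0 mouse 2 array was high in heat shock genes.

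The first question was which genes differed between the middle dose and vehicle. Of 31022 probes tested with limma, with slide as a block and all 20 lung arrays in the fit, 0 (0%) passed an adjusted p of 0.05 with a change of at least 1.5-fold, and 0 passed the adjusted p alone. The lowest adjusted p was 0.111. At an unadjusted p of 0.05 or less, 2229 probes (7.19%) were higher and 1571 (5.06%) lower at D2, 3800 in all. With processed signals the split was 2134 higher and 962 lower. The median log2 difference over all probes was 0.0049. The values of the D0 and D2 groups did not overlap for 68 probes above (0.219%) and 92 below (0.297%). A test on 100 shufflings of residuals also called 0 probes, and gave 4019 at an unadjusted p of 0.05 or less. Without the slide block, 1055 probes had an unadjusted p of 0.05 or less. A single library changed the count of calls: without D0 mouse 5, 9 probes passed both thresholds. They were Nr1d1 (1.32 higher on the log2 scale), Cygb (0.96), H2-Ob (0.84), H2-DMb1 (0.80), Rgs2 (0.77), Artn (0.61) and 3 probes with no gene symbol. No gene below is therefore called changed, and each difference is given with its standard error (SE).

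The genes of the aryl hydrocarbon receptor were the first of interest. The log2 ratios of Cyp1a1 were 0.64, 0.84, 0.43, 1.51 and 1.57 in D0 mice 1 to 5, and 0.82, 0.65, 0.46, 0.12 and 1.07 in D2 mice 11 to 15. D2 mouse 14 was below every D0 mouse, D0 mice 4 and 5 were above every D2 mouse, and the other mice overlapped. The D2 mean was lower by a log2 difference of -0.37 (SE 0.34, adjusted p = 0.688), which was -0.19 without D2 mouse 14, -0.22 without D0 mouse 4 and -0.59 without D0 mouse 3. The probe was well above background on 4 D0 arrays and 2 D2 arrays, and the difference was -1.18 with processed signals. Cyp1b1 differed by -0.05 (SE 0.12; 0.02 with processed signals), and Arnt by 0.21 (SE 0.06, adjusted p = 0.177; 0.13 with processed signals), while the other probe of Arnt was at -0.09 (SE 0.08). The aldehyde dehydrogenase Aldh3a1 was at -0.90 (SE 0.39), and its D0 values of 3.37, 0.31, 0.64, 0.41 and 0.56 show a single high mouse, mouse 1. Without that mouse it was at -0.33. Of the 8 receptor genes tested, 1 was higher and 1 lower at an unadjusted p of 0.05 or less, with a median of -0.07, beside 8.96% higher and 5.70% lower among the 14532 genes with a symbol, whose median was 0.0095. The lower count was 0 without D0 mouse 1, D2 mouse 11 or D2 mouse 15, and the higher count was 0 without the slide block. The median ran from -0.13 without D2 mouse 14 to -0.04 without D0 mouse 3.

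Genes of the p53 response were close to vehicle. Cdkn1a stood at -0.41, -0.96, -0.80, -1.43 and -1.96 in D0 mice and at -0.99, -1.20, -0.76, -1.21 and -1.45 in D2 mice. All the D2 values lay inside the D0 range, and the difference was -0.01 (SE 0.20), with a change of sign to 0.01 with processed signals and to 0.02 with the deposited ratios. Mdm2 differed by -0.07 (SE 0.08). Of 23 p53 targets tested, 3 were higher at an unadjusted p of 0.05 or less and 0 lower, with a median of 0.04, beside 8.96% and 5.70% among all genes. As single arrays were left out, the count ran from 1 (without D2 mouse 13) to 4 and the median from -0.02 to 0.11, and without the slide block the count was 1. The 3 were the cell death gene Bax (0.27, SE 0.08), the p53 cofactor Trp53inp1 (0.23, SE 0.09) and the nuclease Aen (0.25, SE 0.10; 0.14 without D2 mouse 13), whose other probe was at 0.13 (SE 0.10). Of 34 DNA repair genes, 2 were higher, the base excision repair enzymes Apex1 (0.27, SE 0.08) and Fen1 (0.24, SE 0.08), and 3 were lower. These shares, 5.88% and 8.82%, lie near those over all genes, and the lower count ran from 0 to 4 as arrays were left out. Among 17 targets of Nrf2, the factor that answers oxidants, 3 were higher and 2 lower at that threshold, and 0 and 1 without the slide block. The lower count was 0 without D0 mouse 2. Prdx1, a peroxidase, was higher by 0.37 (SE 0.09; 0.23 with processed signals) and Txnrd1, which reduces thioredoxin, by 0.19 (SE 0.05), while the glutathione transferase Gsta3 was at -0.30 (SE 0.11). Of 27 genes of xenobiotic metabolism, 2 were higher and 1 lower (7.41% and 3.70%), and as single arrays were left out the counts ran from 1 to 3 and from 1 to 2 (1 higher and 2 lower without D0 mouse 1). Without the slide block both were 0. The lower one was the sulfotransferase Sult1a1, whose D0 values were 5.63, 5.82, 5.59, 6.01 and 6.35 and whose D2 values were 5.29, 5.27, 4.98, 5.65 and 6.09 (difference -0.43, SE 0.08, adjusted p = 0.117). Every D2 value was below the D0 value of its own slide, while the groups overlapped. The difference was -0.01 with processed signals, and the other probe of Sult1a1 was at -0.15 (SE 0.10). The acetyltransferase Nat2 was higher by 0.17 (SE 0.05; 0.32 with processed signals) and Cyp2b10, a target of the receptor CAR, by 0.23 (SE 0.08).

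Of the 12 higher genes described, 2 of the clock, Dbp and Nr1d1, had the largest differences with median signals. With processed signals, Serpina3f was at 2.46. The clock is a loop in which Clock and Arntl turn on genes through E-boxes, among them their own repressors of the Per and Cry families, the receptors Nr1d1 and Nr1d2, which shut down Arntl and Nfil3, and the activators Dbp, Hlf and Tef, which act on D-boxes. Of the 13 repressor and D-box output genes tested, 12 were higher and 6 of them at an unadjusted p of 0.05 or less, with a median of 0.33, beside 8.96% higher and 5.70% lower among all genes. Of the 5 genes tested in the activator arm, 4 were lower, all at that threshold, with a median of -0.35. Counts of the first list ran from 5 to 7 and of the second from 3 to 4 when each of the 10 arrays was left out, and were 5 and 2 without the slide block.

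The log2 ratios of Dbp were 1.32, -0.98, 0.10, -0.21 and 1.23 in D0 mice and 1.71, 2.33, 1.5, 0.94 and 2.50 in D2 mice. D0 mice 2, 3 and 4 were below every D2 mouse, while D0 mice 1 and 5 lay among them. The difference was 1.51 (SE 0.39, 2.84-fold, adjusted p = 0.161), and another probe of the gene gave 1.53 (SE 0.41). Nr1d1 stood at 1.75, -0.27, 0.34, 0.71 and 1.82 in D0 mice and at 2.00, 2.10, 1.56, 1.83 and 2.37 in D2 mice. The same 3 D0 mice were the low ones, and the difference was 1.10 (SE 0.25, adjusted p = 0.127). Without D0 mouse 2, the differences were 1.20 for Dbp and 0.82 for Nr1d1. Nr1d2 was higher by 0.53 (SE 0.14), Hlf by 0.54 (SE 0.18), Bhlhe40, a repressor that binds E-boxes, by 0.45 (SE 0.14), Per3 by 0.37 (SE 0.16; 0.69 with processed signals and 0.23 without D2 mouse 12) and Tef by 0.33 (SE 0.16). Per1 (0.20, SE 0.32), Per2 (0.16, SE 0.19), Usp2 (0.08, SE 0.25), Cry2 (0.01, SE 0.11) and Bhlhe41 (-0.07, SE 0.10; other probe 0.17, SE 0.14) had differences under 1.5 times their SE. Per1 ran from -0.08 to 0.51 and Per2 from -0.01 to 0.29 as single arrays were left out, with the lowest values without D2 mouse 12 and D2 mouse 15. In the other arm, Arntl was at -0.49, 0.24, -0.52, 0.04 and -0.57 in D0 mice and at -0.97, -1.46, -0.65, -0.54 and -1.68 in D2 mice, a difference of -0.80 (SE 0.26, adjusted p = 0.236). Of the D2 mice, only mouse 14 lay above the lowest D0 value. Nfil3 was at -0.51 (SE 0.15; -0.33 without D0 mouse 2) and Clock at -0.25 (SE 0.09), and Rora at 0.10 (SE 0.09). With processed signals Bhlhe41 (0.06) and Rora (-0.02) changed sign.

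**Figure D1:**
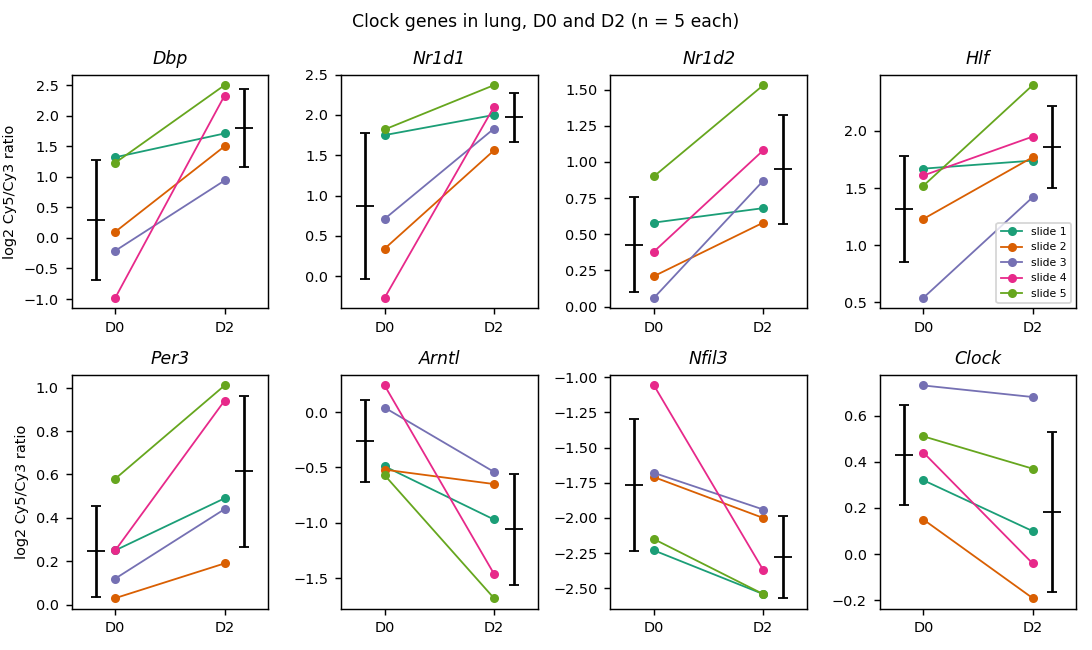
Log2 Cy5/Cy3 ratio (vertical axis) of 8 clock genes in lung at D0 and D2. Points are mice, lines join the 2 arrays of a slide, and the black marks are means with SD (n = 5). All 5 lines run upward in Dbp, Nr1d1, Nr1d2, Hlf and Per3 and downward in Arntl and Nfil3, while the groups overlap in each gene.

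For each clock motif, 1 window of 250 bases before the start of a gene of these lists is shown to give the letters searched. They come from RefSeq (GRCm38.p6), and capitals mark the motif: TTANGTAA, the D-box, in Per3 (chr4:151044666-151044915, minus strand), CACGTG, the E-box, in Tef (chr15:81802423-81802672, plus strand), and TAGGTCA on either strand, the site of Nr1d1, in Nfil3 (chr13:52981040-52981289, minus strand).
Per3: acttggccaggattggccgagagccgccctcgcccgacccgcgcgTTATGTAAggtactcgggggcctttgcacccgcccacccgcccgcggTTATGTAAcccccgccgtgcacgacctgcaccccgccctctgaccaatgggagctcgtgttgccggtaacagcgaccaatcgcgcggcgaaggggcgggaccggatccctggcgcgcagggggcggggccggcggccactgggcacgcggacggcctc
Tef: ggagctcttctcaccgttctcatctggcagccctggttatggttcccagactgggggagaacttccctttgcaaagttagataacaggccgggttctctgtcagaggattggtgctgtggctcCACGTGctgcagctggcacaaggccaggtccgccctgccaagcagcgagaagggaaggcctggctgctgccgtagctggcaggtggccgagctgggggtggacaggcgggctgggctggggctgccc
Nfil3: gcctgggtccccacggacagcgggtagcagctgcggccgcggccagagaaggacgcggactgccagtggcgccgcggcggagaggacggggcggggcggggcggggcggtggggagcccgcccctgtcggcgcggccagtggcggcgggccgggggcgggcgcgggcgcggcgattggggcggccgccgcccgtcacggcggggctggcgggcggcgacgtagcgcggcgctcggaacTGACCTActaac
Of 12 repressor and output genes with a sequence, 5 held CACGTG and 1 held TTANGTAA, and of 5 genes of the activator arm 1 held TAGGTCA. Among 32851 promoters, CACGTG was in 6.02%, TTANGTAA in 2.06% and TAGGTCA in 2.23%. The windows of Dbp, Nr1d1 and Arntl held none of the 3. A match is a run of letters and no measure of binding.

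Heat shock and chaperone genes were lower as a list. They encode proteins that refold others and are turned on by the factor Hsf1 in heat or stress. Of 16 tested, 15 were lower, 9 of them at an unadjusted p of 0.05 or less and 0 higher, with a median of -0.47, beside 5.70% lower among all genes. Hsph1, a large Hsp70 partner, stood at -1.18, 2.02, -0.42, -1.04 and -1.17 in D0 mice and at -1.85, -1.43, -0.94, -1.39 and -1.65 in D2 mice (difference -1.09, SE 0.37, adjusted p = 0.253). Mouse 2 was 2.02 in a group otherwise below 0. Hspd1, the mitochondrial chaperonin, was at -0.99, -0.03, -1.0, -1.0 and -1.18 in D0 mice and at -1.29, -1.45, -1.34, -1.44 and -1.24 in D2 mice. Its groups did not overlap, and the difference was -0.51 (SE 0.14, adjusted p = 0.164). Hspb1, a small heat shock protein, was at 2.19, 3.17, 2.09, 1.60 and 1.49 in D0 mice and at 1.33, 1.49, 1.70, 1.43 and 1.23 in D2 mice (difference -0.67, SE 0.21). Without D0 mouse 2, the count was 4 of 16 lower and the median -0.23, and the differences were -0.55 for Hsph1, -0.32 for Hspd1 and -0.44 for Hspb1. Without D2 mouse 12, which shared its slide, the count was 3 and the median -0.34.

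The mean of the list, set to the D0 mean, was 1.05 in the lung of D0 mouse 2 and -0.15 to -0.34 in the other D0 mice. In D2 mice it was -0.37 to -0.53, below all of them. In liver D0 mouse 2 was again the highest of the 20 mice, at 0.83. In forestomach the mean was 0.20 in that mouse, while Hsph1 alone was 1.10 there, the highest of 20. The window before Hspb1 (chr5:135887669-135887918, plus strand, GRCm38.p6) is shown because it held the pattern GAANNTTC, a heat shock element pair that reads the same on both strands, more than once, and capitals mark it.
Hspb1: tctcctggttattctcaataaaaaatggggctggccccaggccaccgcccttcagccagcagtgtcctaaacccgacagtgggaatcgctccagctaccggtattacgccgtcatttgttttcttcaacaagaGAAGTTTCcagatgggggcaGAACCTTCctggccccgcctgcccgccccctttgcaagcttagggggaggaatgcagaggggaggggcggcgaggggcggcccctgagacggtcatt
The pattern was in 6 of 13 heat shock genes with a sequence and in 6.69% of the 32851 promoters.

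**Figure D2:**
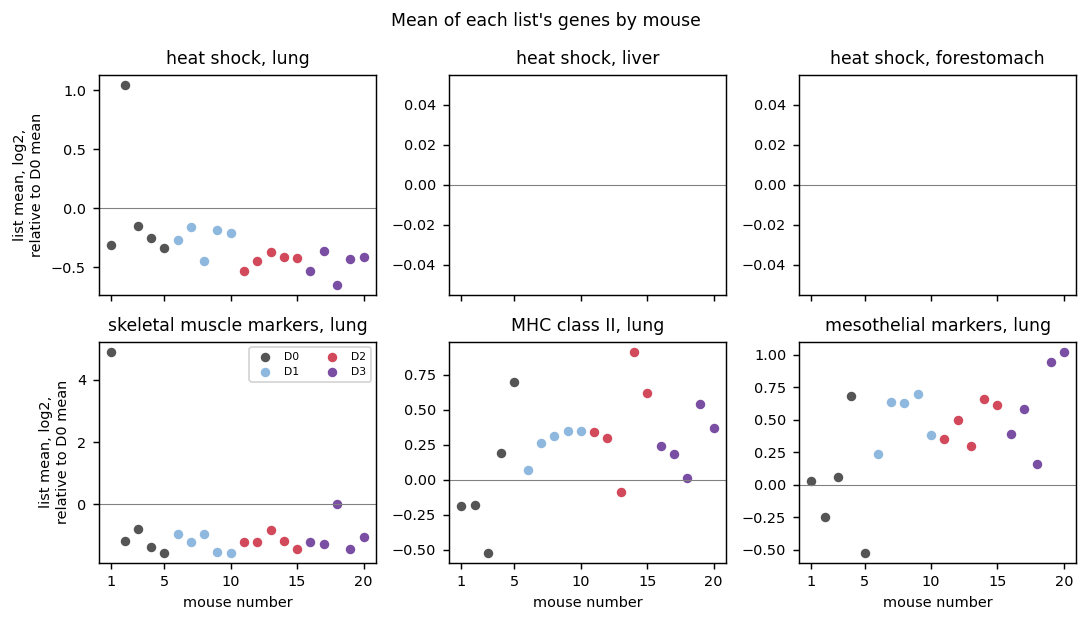
Mean log2 ratio of the tested genes of a list, set to the mean of the D0 mice (vertical axis), by mouse number and coloured by dose. Only lung values are drawn, and the liver and forestomach panels hold no points. D0 mouse 2 is the highest in heat shock genes in lung (1.05), and D0 mouse 1 is alone at 4.89 in skeletal muscle markers. The mesothelial list spreads more among D0 mice (-0.52 to 0.68) than among D2 mice (0.30 to 0.66).

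By the rule for named genes (at least 1.5-fold and 5 within-slide differences of 1 sign), 28 genes were higher and 26 lower, and the 12 of smallest p in each direction are described. Their adjusted p ran from 0.111 to 0.252, and in 22 of the 24 the groups overlapped. The 2 without overlap were Trem2 and Crebzf. Trem2, a lipid receptor of macrophages, was at -2.80, -2.38, -2.20, -2.66 and -2.23 in D0 mice and at -1.67, -2.11, -2.11, -1.61 and -1.74 in D2 mice (0.60, SE 0.14). Crebzf, a leucine zipper factor of the unfolded protein response, was at 0.11, 0.23, 0.30, 0.30 and 0.16 in D0 mice and at -0.40, -0.42, -0.69, -0.24 and -0.30 in D2 mice (-0.63, SE 0.16). The other 2 probes of Crebzf gave -0.06 (SE 0.09) and -0.0045 (SE 0.09), so the probes of this gene disagree.

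The smallest p upward was that of Gabra3, a subunit of the GABA-A receptor, with a difference of 0.60 (SE 0.10, adjusted p = 0.111; 1.19 with processed signals). Its D0 values were 1.62, 1.65, 0.69, 2.48 and 2.67 and its D2 values 2.04, 2.21, 1.27, 2.87 and 3.71, so that the groups overlapped widely while the difference was positive within each slide. Cygb, a globin of fibroblasts, stood at 3.80, 3.25, 3.24, 4.25 and 4.61 in D0 mice and at 4.28, 4.59, 4.01, 5.25 and 5.31 in D2 mice (0.86, SE 0.15). D2 mice 14 and 15 were above all D0 mice, and the other 3 within their range. Rgs2, which dampens signals of G protein-coupled receptors, was higher by 0.63 (SE 0.14), and its other probe gave 0.39 (SE 0.13). The remaining higher genes were Wscd2 (0.62, SE 0.12), Calcr, the calcitonin receptor (0.61, SE 0.16), and the serine protease inhibitor Serpina3f (0.84, SE 0.22; 2.46 with processed signals), whose other probe was at -0.48 (SE 0.90), beside the clock, complement, MHC class II and mesothelial genes treated elsewhere.

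Of the lower genes, Slc13a4, a sulfate carrier, was at 2.92, 2.91, 1.94, 3.18 and 3.59 in D0 mice and at 2.40, 1.89, 1.63, 2.59 and 2.91 in D2 mice (-0.63, SE 0.14, adjusted p = 0.127). The aldehyde oxidase Aox1 was at 1.80, 1.84, 1.24, 1.68 and 2.25 in D0 mice and at 0.86, 1.07, 0.60, 1.10 and 1.85 in D2 mice (-0.67, SE 0.18). In both, the D2 mouse was the lower one on every slide, and 3 D2 mice for Slc13a4 (11, 14 and 15) and 1 for Aox1 (15) lay within the D0 range. Egln3, a prolyl hydroxylase of the oxygen response, and the ligand Wnt10a were at -0.64 (SE 0.21) and -0.59 (SE 0.20), but their highest D0 value was that of mouse 1 (-1.66 and -2.29), and without it the differences were -0.33 and -0.29. Egln3 was well above background on 2 of 5 arrays in each group and was at -1.31 with processed signals.

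**Figure D3:**
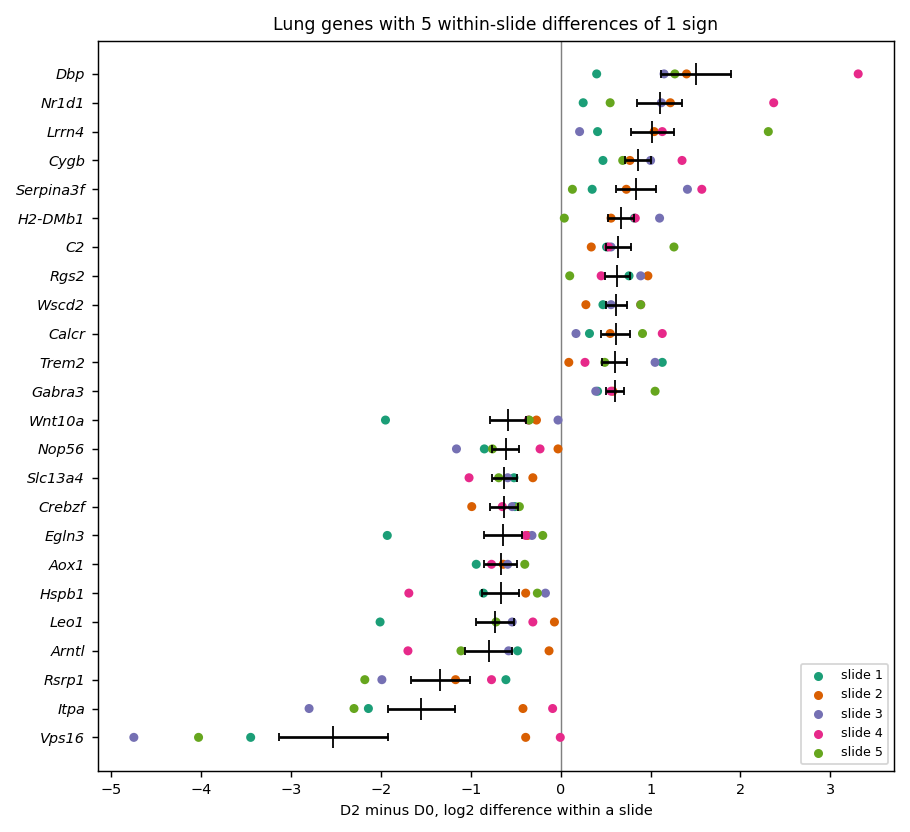
D2 minus D0 log2 difference (horizontal axis) within each of 5 slides for the 24 genes. Coloured points are slides, and the black mark is the fitted difference with its SE. All points of a gene lie on 1 side of 0 by the choice of the genes, and in Vps16 and Itpa 3 slides lie far from the other 2.

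Most immune lists had more members higher than lower, and no gene was called. Of 10 MHC class II genes tested, which show peptides to CD4 T cells, 10 were higher and 7 of them at an unadjusted p of 0.05 or less, with a median of 0.47, beside 8.96% higher among all genes, the share that the following immune counts also stand against. H2-DMb1, which loads the peptides, was at 2.75, 3.02, 2.55, 3.42 and 3.82 in D0 mice and at 3.57, 3.84, 3.11, 4.52 and 3.87 in D2 mice (0.67, SE 0.14, adjusted p = 0.127). Mouse 5 was the highest D0 mouse and 0.04 below the D2 mouse of its slide. Cd74, the invariant chain, was higher by 0.47 (SE 0.14) and H2-Eb1 by 0.26 (SE 0.07). The count of the list was 10 without D0 mouse 5 and 5 without D0 mouse 3 or D2 mouse 14, and its median was 0.30 without D0 mouse 3. Of 16 complement genes, 7 were higher at that threshold and 0 lower, with a median of 0.37. C2, the protease of the classical pathway, stood at 2.67, 2.94, 2.81, 3.48 and 2.54 in D0 mice and at 3.18, 3.47, 3.15, 4.03 and 3.80 in D2 mice (0.64, SE 0.14). D2 mice 14 and 15 were above the whole D0 group, and mice 11, 12 and 13 within it. C1s1 was higher by 0.48 (SE 0.12) and C4b by 0.80 (SE 0.22). The median of the list was 0.18 without D2 mouse 14 and 0.22 without D0 mouse 3. Set to the D0 mean, the means of complement, fat cell and club cell genes were 0.98, 2.54 and 1.78 in D2 mouse 14. They were 0.63, 1.3 and 1.04 in D2 mouse 15, and 0.02, 1.5 and 0.95 in D0 mouse 1. Whether these lists go together was not tested.

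Of 35 chemokines and receptors, 10 were higher and 0 lower, with a median of 0.15. They included Ccl6 of macrophages (0.58, SE 0.14; 0.36 with processed signals), Ccl17, which draws CCR4 T cells (0.65, SE 0.19), and Cxcl16 (0.25, SE 0.07). Without D2 mouse 14 the count was 5, and without D0 mouse 1 it was 6. Of 9 markers of natural killer cells, 9 were higher and 5 at that threshold, with a median of 0.40 (0.70 with processed signals). Only 2 of these 9 were well above background on all 10 arrays. Prf1, perforin, was at 0.10, -0.09, -0.15, 0.02 and 0.74 in D0 mice and at 0.71, 0.40, 0.23, 0.79 and 0.89 in D2 mice (0.48, SE 0.10, adjusted p = 0.127). Mouse 5 was the one D0 mouse among the D2 values. The receptors Klrb1c and Klrd1 were at 0.54 (SE 0.18; 1.09 with processed signals) and 0.43 (SE 0.16; 0.27 without D2 mouse 14). Without D2 mouse 14 the count of that list was 2, without D2 mouse 15 it was 3, and without D0 mouse 5 it was 9. Of other leukocyte markers, 1 of 15 T cell, 0 of 13 B cell, 0 of 10 neutrophil, 0 of 8 plasma cell and 3 of 12 alveolar macrophage markers were higher at that threshold, with medians of 0.10, 0.09, -0.0046, 0.03 and 0.15. At any p, 11 of the T cell, 10 of the B cell, 4 of the neutrophil, 6 of the plasma cell and 10 of the macrophage markers were higher. Without D0 mouse 5, 4 B cell markers were higher and their median was 0.31, and without D0 mouse 2 it was -0.02. The macrophage count ran from 1 to 5, the latter without D2 mouse 14. The T cell median was 0.04 without D0 mouse 1 and -0.02 without D0 mouse 4 or D2 mouse 14. The neutrophil median was 0.31 without D0 mouse 2 and -0.12 without D0 mouse 4, and the macrophage median 0.24 with processed signals. The acute-phase gene Lcn2, an iron carrier of neutrophils and epithelium, was at 1.33, 1.5, 1.94, 1.34 and 1.62 in D0 mice and at 2.56, 2.11, 1.71, 2.58 and 2.07 in D2 mice (0.66, SE 0.16). Mouse 13 was the one D2 mouse within the D0 range. Over the 12 acute-phase genes tested, 7 were higher and 5 lower, 4 and 1 at that threshold, and the higher count was 2 without D0 mouse 3, D0 mouse 4 or D2 mouse 14. Their median of 0.17 was -0.01 without D2 mouse 14. Without the slide block, the counts of higher genes were 4 for MHC class II, 3 for complement, 2 for chemokines and 3 for natural killer markers.

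Among interferon-stimulated genes more were lower than higher. Of 23 tested, 6 were lower and 2 higher at an unadjusted p of 0.05 or less, with a median of -0.17, beside 5.70% and 8.96% among all genes. Rsad2, which blocks viral replication, was at 1.37, 2.07, 1.66, 2.36 and 1.09 in D0 mice and at 1.41, -0.04, 0.92, 0.81 and 0.27 in D2 mice (-1.04, SE 0.32, adjusted p = 0.223). Mouse 11 was the one D2 mouse within the D0 range. Oasl1 was at -0.48 (SE 0.13) and Parp14 at -0.30 (SE 0.09), while the GTPase Iigp1 was at 0.33 (SE 0.12; 0.19 with processed signals) and Ifit2 at 0.17 (SE 0.08; 0.40 with processed signals). The median was -0.06 and the count 3 lower without D0 mouse 2, and -0.08 and 3 without D2 mouse 15, and without D0 mouse 1 the counts were 9 lower and 0 higher.

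In the matrix, Wnt and mesothelial lists more genes were higher than lower, and none was called at D2. Of 24 elastic fibre, crosslinking and TGF-beta genes, 19 were higher and 5 lower, 12 and 0 of them at an unadjusted p of 0.05 or less, with a median of 0.18, beside 8.96% higher and 5.70% lower among all genes, which holds for the counts that follow. Loxl1, which crosslinks elastin, was at -0.63, -1.12, -1.02, -0.03 and -0.40 in D0 mice and at 0.24, -0.06, -0.21, -0.04 and -0.02 in D2 mice (0.62, SE 0.14, adjusted p = 0.132). D0 mouse 4 alone was among the D2 values. Tgfbr2, a TGF-beta receptor, was higher by 0.41 (SE 0.09; other probe 0.14, SE 0.09) and the ligand Tgfb2 by 0.41 (SE 0.10). The count was 7 without D2 mouse 11. Of 18 collagen genes, 12 were higher and 6 lower, 5 and 0 at that threshold, with a median of 0.14 that was 0.08 without D2 mouse 11 or D0 mouse 5 and 0.09 without D0 mouse 3. Col1a1 was at -2.51, -2.53, -2.10, -2.10 and -2.19 in D0 mice and at -1.95, -1.83, -1.94, -2.06 and -1.90 in D2 mice (0.35, SE 0.11, adjusted p = 0.232), with no overlap. Col6a1 and Col6a2 were at 0.27 (SE 0.09) and 0.33 (SE 0.11). Of 32 Wnt pathway genes, 20 were higher and 12 lower, 10 and 0 at that threshold, with a median of 0.05 that was 0.02 without D2 mouse 12 and 0.10 without D0 mouse 5. The count was 6 without D0 mouse 5. Wnt10a, described above as lower, was not on that list. The ligand Wnt5b was higher by 0.35 (SE 0.07, adjusted p = 0.117), the receptor Fzd6 by 0.35 (SE 0.08) and Rspo1, which strengthens Wnt signals, by 0.48 (SE 0.11; 0.17 with processed signals). Hhip, a hedgehog inhibitor, was at 0.36 (SE 0.10; 0.22 with processed signals).

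All 10 tested markers of mesothelial cells, which cover the lung surface, were higher, 6 at an unadjusted p of 0.05 or less, with a median of 0.45. Lrrn4, one of their surface proteins, was at 0.55, 0.04, -0.29, 1.37 and -1.03 in D0 mice and at 0.95, 1.16, 0.75, 1.58 and 1.27 in D2 mice (1.02, SE 0.24, adjusted p = 0.139). The D0 mice spread over more than the D2 mice, and D0 mouse 4 lay above 4 of the 5 D2 mice. Upk3b was at 0.77, 0.31, 0.43, 1.55 and -0.16 in D0 mice and at 1.19, 1.45, 1.17, 1.43 and 1.68 in D2 mice (0.81, SE 0.18). Without D0 mouse 5, the lowest in both genes, Lrrn4 was at 0.68 and the median of the list at 0.29. Of 13 alveolar type 2 markers, 5 were higher and 0 lower at that threshold, with a median of 0.17. The count was 3 without D0 mouse 1, D0 mouse 3 or D2 mouse 12 and 8 without D0 mouse 5. Etv5, a factor that keeps these cells in their state, was at 1.80, 2.21, 2.15, 2.65 and 2.71 in D0 mice and at 2.62, 3.02, 2.57, 2.69 and 3.04 in D2 mice (0.48, SE 0.10). D0 mice 4 and 5 were among the D2 values. Sftpb, a surfactant protein, was at 0.34 (SE 0.11; 0.14 with processed signals) and the lipid pump Abca3 at 0.23 (SE 0.08; 0.13 with processed signals). Medians were also positive for ciliated (0.17, 9 of 11 higher), smooth muscle (0.16, 8 of 10) and alveolar type 1 cell markers (0.15, 9 of 10). They were 0.11 for club (6 of 8), 0.06 for endothelial (13 of 18) and 0.03 for lymphatic endothelial cell markers (2 of 4). A positive median was thus not particular to type 2 cells. Without the slide block, the counts of higher genes were 8 for the elastic fibre list, 5 for Wnt, 3 for mesothelial and 1 for type 2 cell markers.

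**Figure D4:**
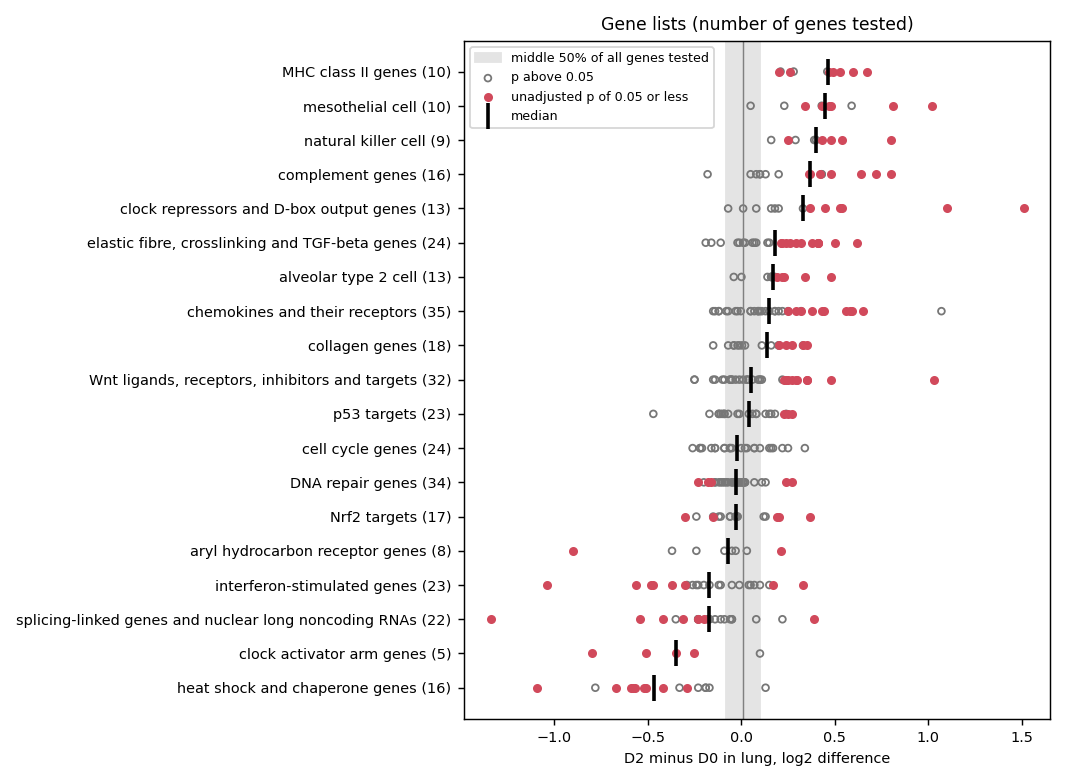
D2 minus D0 log2 difference (horizontal axis) of every tested gene of 19 lists, with the number tested in parentheses. Red points had an unadjusted p of 0.05 or less, black bars are medians, and the grey band holds the middle 50% of the 14532 genes with a symbol (-0.08 to 0.10). Among these 19, the MHC class II, mesothelial and natural killer lists have their medians furthest to the right (0.47, 0.45 and 0.40) and the heat shock list furthest to the left (-0.47). Lists not drawn include fat cell (0.43), skeletal muscle (-1.22) and squamous epithelial (-0.79) markers.

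Genes linked to splicing, a list that also holds nuclear long noncoding RNAs, were lower in the median. Like the other lists, it was chosen with earlier results of these data known, so its counts describe these arrays and are no independent test. Of 22 tested, 6 were lower and 1 higher at an unadjusted p of 0.05 or less, with a median of -0.17, beside 5.70% and 8.96% among all genes, and Rsrp1, described further on, was among the 6. Rbm5, a splicing regulator, was at 0.61, 0.93, 0.83, 0.39 and 0.41 in D0 mice and at 0.00, 0.04, 0.21, -0.03 and 0.26 in D2 mice (-0.54, SE 0.10, adjusted p = 0.111), with no overlap. Arglu1 was at -0.46, -0.64, -0.57, -0.50 and -0.71 in D0 mice and at -1.17, -1.03, -1.06, -0.73 and -0.99 in D2 mice (-0.42, SE 0.09), also with no overlap, while its other probe was at -0.11 (SE 0.14). Of 24 cell cycle genes 0 were at that threshold in either direction (median -0.02), with up to 4 higher (without D0 mouse 3) and up to 3 lower (without D0 mouse 5) as arrays were left out. Of 14 glucocorticoid-responsive genes 0 were at it (median -0.18), but the median was -0.06 without D0 mouse 1 and -0.10 without D2 mouse 11, and 4 were lower without D0 mouse 5 and 3 without D2 mouse 15. Of 17 immediate early genes 1 was higher and 1 lower, with a median of 0.11 that was 0.04 without D0 mouse 1 and 0 without D2 mouse 14, and 4 were higher without D0 mouse 3. Among red cell genes, the anion exchanger Slc4a1 was at 2.82, 3.26, 3.23, 4.51 and 3.21 in D0 mice and at 3.40, 1.38, 2.00, 2.55 and 2.36 in D2 mice (-1.07, SE 0.33), and the list had a median of -0.03. Skeletal muscle markers had a median of -1.22 and squamous markers of -0.79, which were 0.04 and -0.11 without D0 mouse 1. Fat cell markers, at a median of 0.43 with 0 of 9 at the threshold, ran from -0.24 to 0.92 as single arrays were left out.

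For Vps16, Itpa, Rsrp1 and Leo1, all among the 12 lower genes, mice at one end of the order recurred in all 3 tissues. Probe sequences were not examined for these genes or for Nop56, so whether their ratios follow the RNA level or the binding of the probe in these mice cannot be told apart. Vps16, a subunit of the complexes that fuse vesicles with lysosomes, had the largest difference of all probes (-2.53, SE 0.61, adjusted p = 0.139). It was at -0.90, -0.98, -0.57, 0.14 and -1.05 in D0 lungs and at -4.35, -0.98, -0.96, -4.61 and -5.07 in D2 lungs. D2 mice 11, 14 and 15 were thus far below all other mice, whose lung values ran from -1.05 to 0.14, and D2 mice 12 and 13 were within the D0 range. The same 3 mice were the lowest 3 of 20 in liver, at -3.69, -3.47 and -3.70, and in forestomach, at -3.86, -3.96 and -4.74. The next lowest mouse was at -1.11 in liver and -0.93 in forestomach.

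Itpa, which removes inosine triphosphate from the nucleotide pool, was lowest in the same 3 mice. It was at -0.94, -0.82, -0.70, 0.07 and -0.90 in D0 lungs and at -3.08, -0.91, -1.13, -2.72 and -3.20 in D2 lungs (-1.55, SE 0.37). D2 mice 11, 14 and 15 were the lowest 3 of 20 in every tissue, with -2.74, -2.24 and -2.49 in liver and -2.30, -2.47 and -3.09 in forestomach. D0 mouse 4 was the highest D0 mouse for both genes in lung, liver and forestomach. Nop56, a ribosomal RNA processing protein, was at -2.40, -2.54 and -2.62 in these 3 D2 lungs and at -1.71 and -1.45 in mice 12 and 13 (-0.61, SE 0.15), while its other probe gave -0.09 (SE 0.06). The 3 mice were the lowest 3 of 20 for Nop56 in liver too, at -2.98, -2.76 and -2.78, but in forestomach mouse 11 was not among the lowest 5. All 3 genes lie on chromosome 2, with Nop56 and Itpa at the ends of a run of 17 protein-coding genes in RefSeq and Vps16 the eighth. Of the genes between, 12 were tested on 14 probes, with differences from -0.21 to 0.38 and a lowest unadjusted p of 0.0249, none near the values of Vps16 or Itpa.

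Rsrp1, a nuclear protein rich in arginine and serine, was at -2.79, -2.32, -0.75, -0.93 and -0.97 in D0 lungs and at -3.40, -3.09, -1.92, -2.92 and -3.14 in D2 lungs (-1.34, SE 0.33, adjusted p = 0.140). The 5 highest lungs of 20 were D0 mice 3, 4 and 5, D1 mouse 10 and D2 mouse 13, from -0.75 to -1.92, and the sixth was at -2.32. The same 5 mice were the highest in liver, from -1.16 to -1.78 with the sixth at -2.88, and in forestomach. Leo1, of the Paf1 elongation complex, was at 1.91, 1.02, 0.47, 1.64 and 1.39 in D0 lungs and at -0.09, 0.71, 0.40, 1.10 and 0.67 in D2 lungs (-0.73, SE 0.21). Mouse 11 was the lowest of 20 in all 3 tissues, at -0.14 in liver and -0.12 in forestomach, and the probe was not well above background in those 3 samples.

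**Figure D5:**
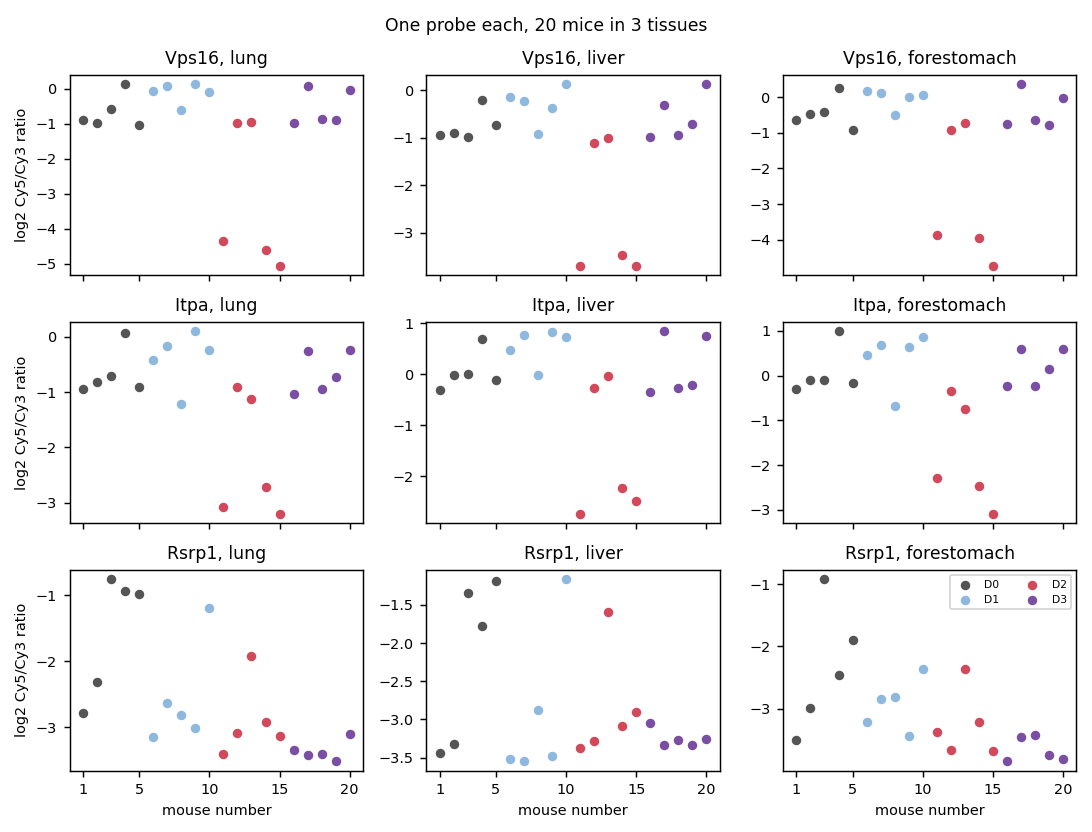
Log2 Cy5/Cy3 ratio (vertical axis) of Vps16, Itpa and Rsrp1 by mouse number in lung, liver and forestomach, coloured by dose. D2 mice 11, 14 and 15 are far below the rest for Vps16 and Itpa in each tissue, and mice 3, 4, 5, 10 and 13 are the 5 highest for Rsrp1.

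The other doses and tissues place the middle dose. Neither D2 against D1 nor D3 against D2 gave a call (0 of 31022 probes each by limma, with 1659 and 1141 at an unadjusted p of 0.05 or less). Against the same D0 arrays, D3 gave 21 calls (0.0677%), and 7 of the 24 genes above passed there. The 24 were picked at D2 and the D0 arrays are shared, so their differences at D1 and D3 are not independent of those at D2. The differences of Gabra3 were 0.52, 0.60 and 0.87 at D1, D2 and D3, those of Lrrn4 0.83, 1.02 and 1.24, those of Nr1d1 0.68, 1.10 and 1.16 and those of Rsrp1 -1.01, -1.34 and -1.81. For Cygb they were 0.41, 0.86 and 0.71. Other genes stood apart at D2 alone, with no call in any test: Itpa was at 0.28 and 0.02 at D1 and D3, Vps16 at 0.55 and 0.13, Aox1 at 0.06 and 0.09, and Leo1 at 0.03 and -0.08. Cdkn1a was at -0.01 at D2 and at 0.67 (SE 0.20, adjusted p = 0.118) at D3.

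Whether the difference at D2 was other in lung than in the other tissues was tested on all 60 arrays, in a fit without the slide block. In lung alone, the fit without that block gave 1055 probes at an unadjusted p of 0.05 or less, against 3800 with it. The SE given below for each tissue came from its own fit, with slide as a block. In 33255 probes, limma called 0 for lung against forestomach, with 992 at an unadjusted p of 0.05 or less, and 0 for lung against liver, with 524. Dbp differed by 1.51 in lung (SE 0.39), 1.46 in liver (SE 0.61) and 1.05 in forestomach (SE 0.42). Nr1d1 differed by 1.10 in lung (SE 0.25), 0.93 in liver (SE 0.32) and 0.74 in forestomach (SE 0.29). Arntl was at -0.80 in lung (SE 0.26), -0.77 in liver (SE 0.44) and -0.05 in forestomach (SE 0.17). The same 5 mice (6, 12, 15, 16 and 18) had the lowest Arntl of 20 in lung and liver, and not in forestomach. None of these genes passed in its own tissue, and the 3 tissues came from the same 10 mice. D2 mice 12 and 15 had the lowest Arntl of 20 in liver, at -1.47 and -1.67, and were the highest in Dbp, at 2.37 and 3.14. Lrrn4 was at 1.02 in lung and -0.12 (SE 0.24) in forestomach, and C2 at 0.64 and -0.15 (SE 0.33). The tests of these differences between tissues had adjusted p = 1.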

How the data were processed

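Each array measured 1 tissue of 1 mouse against universal mouse reference RNA, a pool of mouse cell line RNA. The deposited intensity values were median spot and background signals, and signals processed by the scanner software (Feature Extraction 10.7.3.1, per the submitters' processing notes, on a design built on mm9). The deposited log2 ratios of the series' matrix of values, made by the authors, were used as an alternative only.

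Median signals were normalized within each array by loess with no background subtraction, control spots at weight 0, outlier spots left out and spots of a probe averaged. Probes whose Cy5 signal was called well above background on 5 or more of the 20 lung arrays were tested with limma 3.58.1 (R 4.3.3) on all 20 lung arrays, with slide as a block and 12 residual degrees of freedom. Thresholds were an adjusted p (Benjamini-Hochberg) of 0.05 and 1.5-fold. Symbols came from RefSeq through unversioned accessions, and the tests were two-sided. The fit was tested on simulated data. Named genes were Cyp1a1, Cyp1b1, Cdkn1a and Mdm2, the members of both clock lists, up to 3 members of each of 43 lists (680 genes) in each direction by smallest p, and the 12 of smallest p in each direction with at least 1.5-fold and 5 within-slide differences of 1 sign. Some results under this rule are not reported here. H2-Ob and Artn were named after their values were seen. The comparison and the lists were chosen with earlier results of these data known.

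Equal mouse numbers are the same animal by the labels. The correlation over probes of a mouse's deviations from its group means ran from -0.00104 to 0.43 between lung and forestomach (median 0.209, 20 mice) and from -0.204 to 0.197 between lung and liver (median 0.0539). The lung and forestomach arrays of a mouse shared a slide, and liver arrays were on other slides. Between lung and forestomach, animal and slide therefore cannot be told apart. The number of arrays limits the precision. The alternatives covered the block, samples, background, signal, normalization, filter, variance model, weights, test and each array left out. Quantile normalization of both channels was chosen after seeing the data.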

Additional observations from a re-analysis of the deposited data

Results flagged for a closer look

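In groups of 5 mice, a value was singled out where its gap to the nearest other mouse, divided by the whole range of the group, was over 0.71. Of 266 groups tried, 12 were over it (4.51%), and chance alone gives about 1 in 20. In D0 mouse 2, heat shock values were high: the share of the range was 0.764 for Hsph1, 0.834 for Hspd1 and 0.863 for the mean of the heat shock list. In D0 mouse 1, it was 0.812 for Per1, 0.892 for Aldh3a1, 0.882 for the mean of the skeletal muscle markers and 0.851 for that of the squamous epithelial markers, all high. D0 mouse 4 was high for Itpa (0.763), Slc4a1 (0.739) and the mean of the collagen list (0.775). D0 mouse 5 was high for Prf1 (0.715). Among D2 mice, the mean of the lymphatic endothelial markers was high in mouse 15 (0.763). Of the 12, 11 lay in the vehicle group.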

How the results depend on the processing

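Over 22 alternatives, limma and the residual shuffling called 0 probes except without D0 mouse 5, so the calls ran from 0 to 9 as single arrays were left out, and those at an adjusted p alone from 0 to 74. Of the 91 named genes, 4 passed in any alternative, all without D0 mouse 5 (Cygb, H2-DMb1, Rgs2 and Nr1d1). Counts at an unadjusted p of 0.05 or less ran from 1817 to 2753 higher and from 1309 to 1806 lower as arrays were left out. They were 574 higher and 481 lower with no slide block. Processed signals gave 2134 higher and 962 lower, against 2229 and 1571, and no filter (55681 probes) gave 2418 lower. With mouse number as a replicate block, 0 probes were called in either test between tissues, as without it, with 1198 (forestomach) and 651 (liver) of 33255 at an unadjusted p of 0.05 or less, and it changed no call.

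Small differences changed sign. With processed signals, Cdkn1a was at 0.01, Cyp1b1 at 0.02, Bhlhe41 at 0.06 and Rora at -0.02. Cdkn1a was at 0.02 with the deposited log2 ratios and at 0.09 with array weights, and Cry2 at 0 with both channels quantile normalized. With single arrays left out, the ranges were -0.10 to 0.01 for Mdm2, -0.22 to 0.17 for Cdkn1a, -0.13 to 0.07 for Cyp1b1, -0.08 to 0.51 for Per1, -0.01 to 0.29 for Per2, -0.07 to 0.09 for Cry2 and -0.14 to 0.35 for Usp2. For the lists, the mean over all probes of a gene was tried as well. Aquantile normalization leaves log ratios as they are and gave no separate value. Dim probes, as Cyp1a1 and Egln3, bound what these arrays can show, and the cause of these shifts was not tested.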
